A study of Mus musculus with 26 samples.

Results

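The genes described here encode the proteins of the mitochondrial ribosome, and their mRNAs were measured by RNA-seq in ESCs, the embryonic stem cells of the mouse. In most of the cells ERR beta, an orphan member of the nuclear receptor family whose gene is Esrrb, was deleted or replaced. The genes were taken as every gene of the deposited count table whose symbol begins with Mrpl or Mrps followed by a digit and that had at least 10 counts over the 26 libraries, which gave 77 of 24421 genes. By the universal nomenclature 50 encode proteins of the large subunit, 26 proteins of the small subunit, and 1, Mrps36, a subunit of the oxoglutarate dehydrogenase complex (KGD4) that keeps its older name. The large subunit count includes Mrps18a and Mrps30, whose symbols carry the letter of the small subunit. The genes lie on 17 chromosomes. Chromosomes 6, 8 and 14 differed as a whole between the groups, so the 12 members there (7, 2 and 3 genes) are given apart from the 65 members on the other chromosomes.

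The mitochondrial ribosome sits in the matrix and translates the few mRNAs of mitochondrial DNA, all of which encode core subunits of the respiratory chain and ATP synthase. Its RNAs come from mitochondrial DNA, but all of its proteins are encoded in the nucleus, made in the cytosol and imported, so a ribosome needs the output of many scattered genes. ERR family receptors bind an extended half-site of the nuclear receptor element and are known, together with NRF1 and the coactivators of the PGC-1 family, as activators of nuclear genes for mitochondria, and ERR beta is also part of the pluripotency network of ESCs.

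The cells fell into 7 groups of 2 separately established clones. In 6 groups the genotype was ERR beta -/-, with an ectopic ERR beta that lacks binding to DNA (KO_ERRb_DBDm3), to the general transcription factor TFIIH (KO_ERRb_DBDm6) or to coactivators (KO_ERRb_AF2M6), with wild-type ERR gamma (KO_ERRg_wt), with wild-type ERR beta (KO_ERRb_wt), or with no ectopic receptor (KO_mock). The remaining group, WT_mock, was wild type with no ectopic receptor. All groups were given doxycycline at 2 µg/ml, the inducer of the constructs, for 3 days in medium with PD and CH, and each clone gave 2 libraries, or 1 in KO_ERRg_wt. Clone is the unit of replication (n = 2 in every group), so a p-value here weighs a difference against clone-to-clone spread only, and whatever else set the clones of a group apart enters it.

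Clone totals ran from 25103562 to 54105869 counts, of which the 77 genes took 0.423% to 0.483%. Levels are in CPM, after scaling of the library sizes with TMM factors, and fold changes are log2 values ± standard error. Esrrb itself read 277 ± 0.733 CPM (SD) in KO_mock against 581 ± 29.9 CPM in WT_mock, so reads of the locus remained in the knockout, and they reached 471 ± 8.03 CPM in KO_ERRg_wt. Esrrb read 420 ± 13.5 CPM in KO_ERRb_wt, 517 ± 50.5 CPM in KO_ERRb_DBDm3, 530 ± 29.2 CPM in KO_ERRb_DBDm6 and 451 ± 18 CPM in KO_ERRb_AF2M6. Esrrg, the gene of ERR gamma, read 124 and 229 CPM in the KO_ERRg_wt clones. Receptor reads thus differed between groups, and their part in the comparisons was not tested. Summed levels of 7 ESC markers were 2850 to 3690 CPM in the clones. Markers of fibroblast feeders summed to 0.876 to 5.35 CPM, with 6 of 7 under 1 CPM in every clone. Of 4 markers of differentiated cells 2 stayed under 1 CPM in every clone, and the sum of the 4 ran from 3.86 to 54.6 CPM, most of it in the high clones from T (Brachyury, a mesoderm factor). In CPM, the 2 clones of KO_ERRg_wt summed to 5.52 and 3.86, those of KO_ERRb_DBDm3 to 26.2 and 6.61, those of KO_ERRb_DBDm6 to 18.8 and 13.3 and those of KO_ERRb_AF2M6 to 39.6 and 16.8, against 54.6 and 36.3 for KO_ERRb_wt, 52.4 and 47.7 for KO_mock and 10.6 and 14.7 for WT_mock. The part of these cells in the differences between groups was not tested. These are bulk samples, in which fewer cells of a type and less RNA per cell cannot be told apart.

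Every one of the 77 genes was expressed in every library, with at least 94 counts, and all passed the filter on low counts. Per length, the mean level over the 14 clones had a median of 45.9 RPKM over the members, and all 77 exceeded the median of 6.72 RPKM over the 15238 tested genes. The medians of the large and small subunit genes were 46.1 and 44.7 RPKM. Although a ribosome is generally taken to hold most of its proteins in equal number, the mRNA levels per length spanned 19.5-fold.

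**Figure D1:**
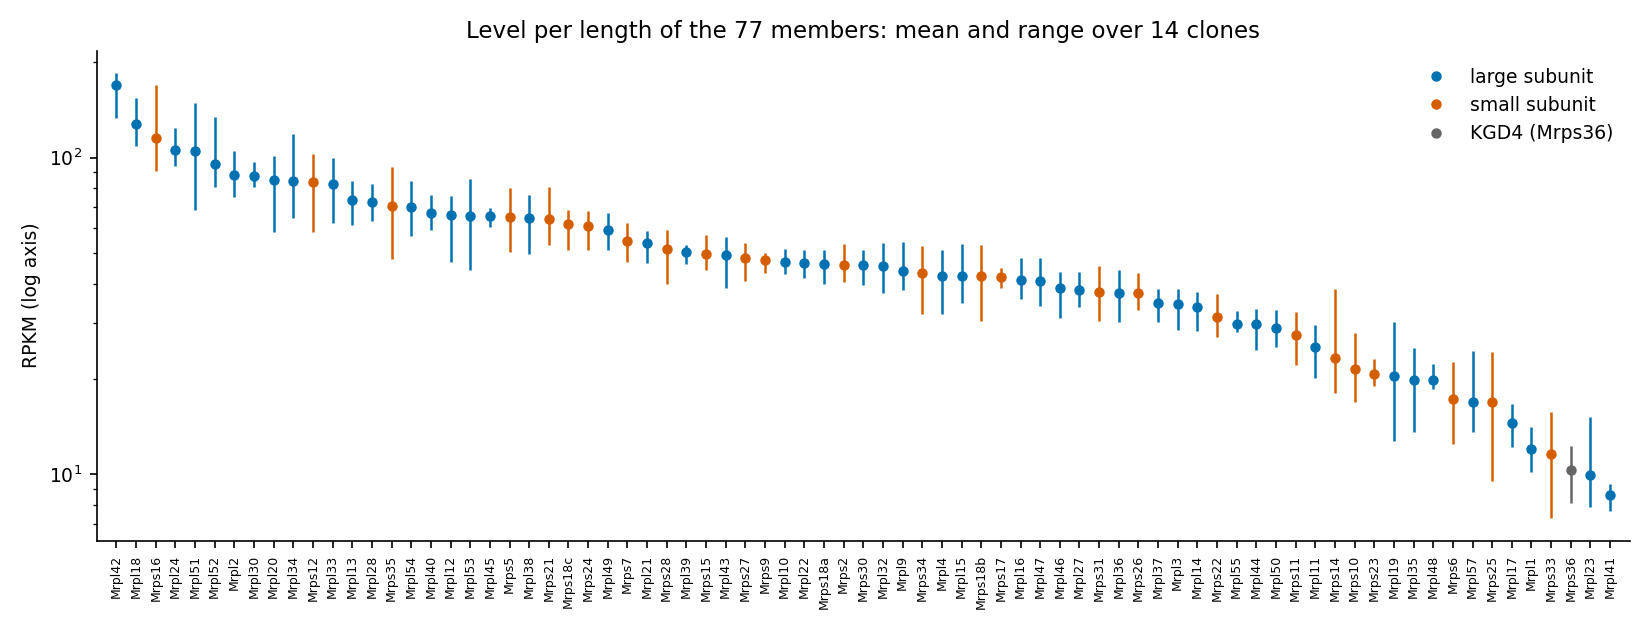
Level per length of each of the 77 genes in RPKM on a log axis, in order of the mean over 14 clones (points), with the lowest and highest clone (lines) and the subunit in colour. The members run from 169 to 8.63 RPKM, large and small subunit genes are mixed along the whole range, and the long lines belong mostly to genes of chromosomes 6, 8 and 14 such as Mrps25.

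The highest level per length was that of Mrpl42, a large subunit protein found only in mitochondria, at 169 RPKM (133 to 185 over the clones). It was followed by Mrpl18 with 128 RPKM, Mrps16 with 115 RPKM and Mrpl24 with 106 RPKM. The clone ranges of Mrpl18 (109 to 154 RPKM) and Mrpl24 (94 to 124 RPKM) overlap, so the order of these neighbours is not beyond the spread of the clones. At the low end stood Mrpl41 with 8.63 RPKM, Mrpl23 with 9.95 RPKM, the oxoglutarate dehydrogenase subunit gene Mrps36 with 10.3 RPKM and Mrps33 with 11.6 RPKM, whose ranges also overlap. The length used is that of all annotated exons, 2423 bases for Mrpl41 and 666 bases for Mrpl42.

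Across the 14 clones the 65 members on the other chromosomes had a median coefficient of variation of 9.37% (3.33% to 22.6%), against a median of 19% over all tested genes there. All members lie above the median level of the tested genes, and genes of like level were not compared. The 12 members on chromosomes 6, 8 and 14 had a median of 23.8% (14.1% to 35.7%). Reads lying in 2 genes were counted for both, which touches Mrps6 (18.6% of its exonic bases are shared with Slc5a3), Mrpl53 (2.26% with Ccdc142) and Mrps23 (2.13% with Cuedc1), so values of Mrps6 are uncertain.

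Promoters were read from RefSeq on GRCm38.p6, the assembly called mm10, from 250 bases before to 50 bases after the start, and 68 of the 77 members had an entry. The extended ERR element TNAAGGTCA, searched on both strands, was in 0 of the 68 (1.22% of 17224 genes with an entry had it). Its core AAGGTCA, which the element contains, was in 4 (5.88%, against 4.77% of all genes). The motifs of general regulators were met more often: CCGGAAG, bound by ETS factors, in 25 (36.8%, against 12.8%), the NRF1 motif, GCGC before and after 2 free bases, in 14 (20.6%, against 9.64%), and AAGATGGCG, bound by YY1, in 8 (11.8%, against 2.19%), while the E-box CACGTG was in 5 (7.35%, against 9.17%). These are letter matches and no binding was measured. Shown first are the 200 bases before the start of the members whose ERR core lies upstream, and then an ETS and an NRF1 example among members named in the comparisons, with the matches in capitals.
Mrps15, chr4:126046728-126046927, plus strand: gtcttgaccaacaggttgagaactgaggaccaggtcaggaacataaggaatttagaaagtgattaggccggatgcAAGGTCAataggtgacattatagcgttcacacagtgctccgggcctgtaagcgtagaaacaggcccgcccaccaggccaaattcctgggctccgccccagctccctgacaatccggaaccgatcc
Mrpl36, chr13:73330809-73331008, plus strand: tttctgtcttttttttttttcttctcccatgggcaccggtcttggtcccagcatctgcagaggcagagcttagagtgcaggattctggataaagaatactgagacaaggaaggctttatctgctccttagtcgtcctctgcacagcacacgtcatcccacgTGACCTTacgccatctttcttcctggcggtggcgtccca
Mrps21, chr3:95871515-95871714, minus strand: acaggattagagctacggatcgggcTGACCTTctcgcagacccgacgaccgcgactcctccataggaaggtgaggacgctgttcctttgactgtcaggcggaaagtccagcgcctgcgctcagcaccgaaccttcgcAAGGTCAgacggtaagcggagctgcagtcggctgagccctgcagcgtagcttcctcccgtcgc
Mrps18a, chr17:46110804-46111003, plus strand: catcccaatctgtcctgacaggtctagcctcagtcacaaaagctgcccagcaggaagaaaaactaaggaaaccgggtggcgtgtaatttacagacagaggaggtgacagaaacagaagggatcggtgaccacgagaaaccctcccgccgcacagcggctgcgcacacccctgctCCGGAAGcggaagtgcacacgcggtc
Mrpl57, chr14:57826039-57826238, plus strand: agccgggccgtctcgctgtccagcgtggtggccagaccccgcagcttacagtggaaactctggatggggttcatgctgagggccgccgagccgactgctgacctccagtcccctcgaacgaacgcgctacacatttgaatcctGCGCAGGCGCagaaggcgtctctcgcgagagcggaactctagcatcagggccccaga
In Mrps15 the core begins at position −125 from the start, and in Mrpl36 it reads on the opposite strand from position −39. Mrps21 holds it at −63 and, on the opposite strand, at −175 from a RefSeq start that lies 895 bases upstream of the start in the count table. The capitals of Mrps18a are the ETS letters and those of Mrpl57 the NRF1 letters. The fourth match to the core, in Mrpl12, begins 33 bases after the start and is not printed.

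None of the 4 genes with an ERR core was called between KO_ERRb_wt and KO_mock, where no member and 1.85% of all tested genes were called. Mrps15 had 45.5 and 53.3 CPM in the KO_ERRb_wt clones against 50.8 and 45.6 CPM in KO_mock and 41.3 and 45.3 CPM in WT_mock. Mrpl36 had 36.7 and 38.5 CPM in KO_ERRb_wt against 31.2 and 32.6 CPM in KO_mock and 29.2 and 34.8 CPM in WT_mock. Mrps15 overlaps between KO_ERRb_wt and KO_mock, while Mrpl36 is higher in both KO_ERRb_wt clones without passing the test across all genes. Mrpl12 had 63 and 66 CPM in KO_ERRb_wt, below the 69.6 and 66.2 CPM of KO_mock, and 44.6 and 53.1 CPM in WT_mock. Mrps21 had 32.9 and 29.3 CPM in KO_ERRb_wt, which overlap with 30.5 and 28.5 CPM in KO_mock, and 27.7 and 26.5 CPM in WT_mock.

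KO_mock against WT_mock asked which of these genes differ when ERR beta is missing. Most differences were small increases. On the other chromosomes 25 of 65 members rose and 2 fell, with a median log2 fold change of 0.13 against 0.01 over all tested genes there. This is 41.5% of the members called, against 36.7% of all tested genes on those chromosomes, so the share called stands near the background, and the larger contrast is in direction (38.5% of members higher against 18.8% of genes, and 3.08% lower against 17.9%). No member on these chromosomes changed 2-fold. Among the genes that rose were 18 of 43 large subunit and 7 of 21 small subunit members, and 17 of 42 members of bacterial ancestry and 8 of 22 proteins added in mitochondria.

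The clone that carries most of these calls is WT_mock 5-2. Without it 5 of the 65 members were called, all higher (7.69% of members, against 6.81% of all tested genes higher and 13.5% called in either direction). Without KO_mock 12-1 or 12-3, 8 and 17 were called (12.3% and 26.2% of members, against 9.00% and 11.0% of genes higher and 16.6% and 20.2% called in either direction). The excess of members called higher over genes called higher is thus small without 5-2 or 12-1. The summed markers of differentiated cells also differed between these groups, with 52.4 and 47.7 CPM in KO_mock against 10.6 and 14.7 CPM in WT_mock. With any 1 of these 3 clones left out, all calls were to the higher side.

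Mrpl20, a large subunit protein of bacterial descent (chromosome 4, 155803618 to 155808829, plus strand, mm10), had the highest fold change. It had 62.2 and 62.1 CPM in the KO_mock clones against 38.6 and 45.2 CPM in the WT_mock clones. The groups do not overlap, and the log2 fold change was 0.57 ± 0.105 (edgeR quasi-likelihood test, adjusted p = 0.0023). In KO_ERRb_wt it had 57.2 and 61.3 CPM, just below KO_mock and above WT_mock.

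Mrpl12, the stalk protein that recruits translation factors to the ribosome, had 69.6 and 66.2 CPM in KO_mock against 44.6 and 53.1 CPM in WT_mock (0.47 ± 0.122, adjusted p = 0.0116). Mrps18b, a small subunit protein (chromosome 17, 35910385 to 35916369, minus strand), had 42.2 and 42.1 CPM in KO_mock against 32.2 and 32.1 CPM in WT_mock (0.39 ± 0.0718, adjusted p = 0.0023). The clones of each group lie close together in Mrps18b, and the KO_ERRb_wt clones, with 36.1 and 36.7 CPM, lie between both groups.

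Mrps11 and Mrpl46 lie head to head on chromosome 7 with 41 bases between them, and no other pair of members is within 5000 bases. Mrps11 had 33.5 and 33.9 CPM in KO_mock against 23 and 27.2 CPM in WT_mock (0.42 ± 0.102, adjusted p = 0.00818). Mrpl46 had 44.9 and 44 CPM in KO_mock against 32.1 and 35.7 CPM in WT_mock (0.39 ± 0.073, adjusted p = 0.00243). Both genes of the pair were higher in each KO_mock clone than in each WT_mock clone.

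The other members that rose there ranged from 0.20 to 0.36 in log2 and included Mrpl11, Mrpl49, Mrpl44, Mrpl9, Mrpl18, Mrpl16, Mrps7, Mrps12, Mrps18c, Mrps28 and Mrps5. The 2 members that fell on the other chromosomes were Mrpl23, a protein at the exit of the peptide tunnel, and Mrpl24. Mrpl23 had 5.53 and 4.59 CPM in KO_mock against 8.83 and 6.06 CPM in WT_mock (−0.56 ± 0.193, adjusted p = 0.0411), and the high value is that of clone 5-2. Mrpl24 had 89.2 and 91.1 CPM in KO_mock against 110 and 101 CPM in WT_mock (−0.23 ± 0.062, adjusted p = 0.0145). Without 5-2 the calls of Mrpl12 (adjusted p = 0.119), Mrps11 (0.094), Mrpl23 (0.409) and Mrpl24 (0.149) were lost. Without 12-1, Mrpl12, Mrpl23 and Mrpl24 were lost, and without 12-3, Mrpl23 and Mrpl24.

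**Figure D2:**
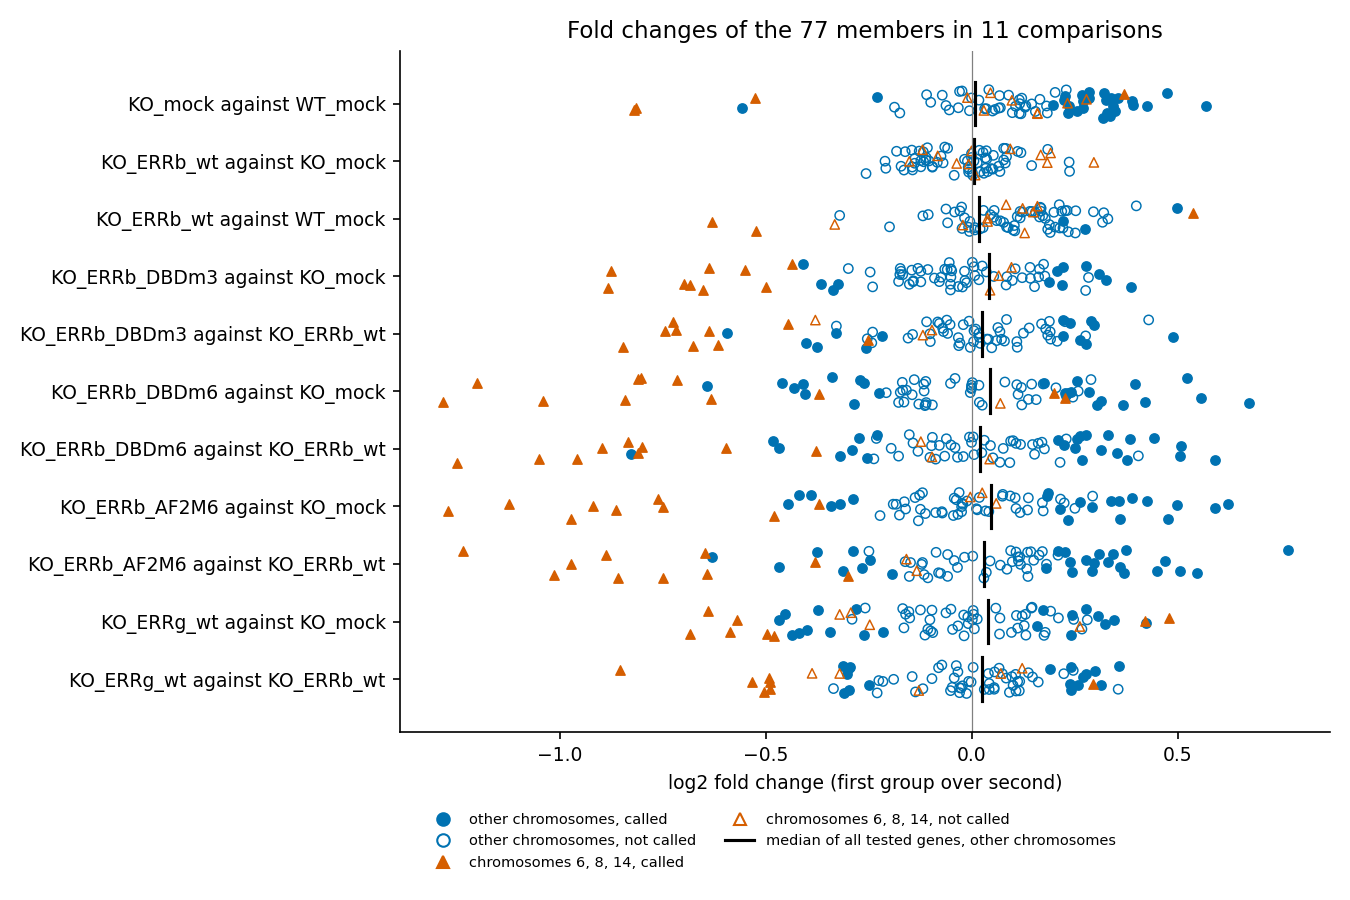
Log2 fold change of each of the 77 genes in the 11 comparisons, first group over second, with circles for the 65 genes on other chromosomes, triangles for the 12 genes on chromosomes 6, 8 and 14, filled where called, and a bar at the median of all tested genes on the other chromosomes. In KO_mock against WT_mock most filled circles lie to the right, KO_ERRb_wt against KO_mock has no filled symbol, and triangles reach −1.28 in KO_ERRb_DBDm6 against KO_mock.

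The 3 members on chromosome 14 all fell in KO_mock, on a chromosome where the other 512 tested genes had a median log2 fold change of −0.61 and 64.7% of tested genes were lower (41.8% of genes over chromosomes 6, 8 and 14 were called in either direction). Mrps16, a small subunit protein of bacterial descent (chromosome 14, 20391231 to 20393555, minus strand), had 51.4 and 55.9 CPM in KO_mock against 96.4 and 92.4 CPM in WT_mock (−0.82 ± 0.083, adjusted p = 0.000137). Mrpl57 had 32.6 and 32.1 CPM in KO_mock against 57.1 and 57 CPM in WT_mock (−0.82 ± 0.0721, adjusted p = 6.65e-05). Mrpl52 had 36.3 and 33.2 CPM in KO_mock against 44.9 and 55.1 CPM in WT_mock (−0.53 ± 0.103, adjusted p = 0.00298). Their median of −0.82 stands beside that of the chromosome, and the part of each gene and of the whole chromosome cannot be told apart. On chromosome 6 none of 7 members was called, and on chromosome 8 Mrpl34 rose, with 71.8 and 65 CPM in KO_mock against 46.9 and 58.9 CPM in WT_mock (0.37 ± 0.114, adjusted p = 0.026, lost without 5-2 or 12-1; 12.9% of tested genes of chromosomes 6, 8 and 14 were higher), while Mrps31 was not called. The 12.9% includes chromosome 14, where 64.7% of tested genes were lower.

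KO_ERRb_wt against KO_mock asked what putting ERR beta back changed, with Esrrb at 420 ± 13.5 CPM against 277 ± 0.733 CPM (581 ± 29.9 CPM in WT_mock). None of the 77 members was called, on a background of 1.85% of all tested genes. At an unadjusted p below 0.05 there were 8 of 77 members (19.7% of all tested genes), and the DESeq2 Wald test called 3: Mrpl57 higher, and Mrpl45 and Mrps18a lower. On the other chromosomes that test called 3.08% of members, against 7.11% of genes. The median log2 fold change of the 65 members on the other chromosomes was −0.01, against 0.00 over all tested genes there, and the extremes were −0.26 and 0.24.

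The smallest p was that of Mrpl57, with 40.2 and 39.3 CPM in KO_ERRb_wt against 32.6 and 32.1 CPM in KO_mock (0.30 ± 0.0721, adjusted p = 0.0609). Mrps18a, a large subunit protein despite its symbol, had 36.2 and 34.6 CPM in KO_ERRb_wt against 42.4 and 42.2 CPM in KO_mock, and 36.3 and 37.4 CPM in WT_mock. Mrpl45, the protein that anchors the tunnel exit to the inner membrane, had 147 and 152 CPM in KO_ERRb_wt against 166 and 169 CPM in KO_mock, and 160 and 165 CPM in WT_mock. In each of these 3 genes the KO_ERRb_wt and KO_mock clones do not overlap, and none passed the edgeR test across all genes.

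KO_ERRb_wt against WT_mock, which shares its clones with both comparisons above, had 3 of 65 members higher on the other chromosomes and none lower (4.68% of all tested genes there higher and 3.93% lower). They were Mrpl20 (0.50 ± 0.105, adjusted p = 0.0155), Mrps28 (0.28 ± 0.0696, adjusted p = 0.0313) and Mrpl44 (0.22 ± 0.0626, adjusted p = 0.0464), a protein related to ribonuclease III. Mrps28 had 36.3 and 35.3 CPM in KO_ERRb_wt against 28.7 and 30.5 CPM in WT_mock, and Mrpl44 had 42.5 and 43.8 CPM in KO_ERRb_wt against 36.1 and 37.9 CPM in WT_mock. The median over the 65 was 0.12, against 0.02 over all tested genes there.

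On the chromosomes set apart, 1 of 12 members rose and 2 fell in KO_ERRb_wt against WT_mock (3.27% of all tested genes there higher and 17.8% lower). Mrpl34 rose (0.54 ± 0.114, adjusted p = 0.016), while Mrps16 (−0.63 ± 0.0826, adjusted p = 0.00125) and Mrpl57 (−0.52 ± 0.0716, adjusted p = 0.00175) fell, beside a chromosome 14 median of −0.56. Without WT_mock 5-2 or KO_ERRb_wt 8-4 the calls of Mrpl34, Mrpl20, Mrps28 and Mrpl44 were lost. Without 5-5 or 8-3 those of Mrps28 and Mrpl44 were lost. The share of all tested genes called on the other chromosomes fell in each of these fits.

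**Figure D3:**
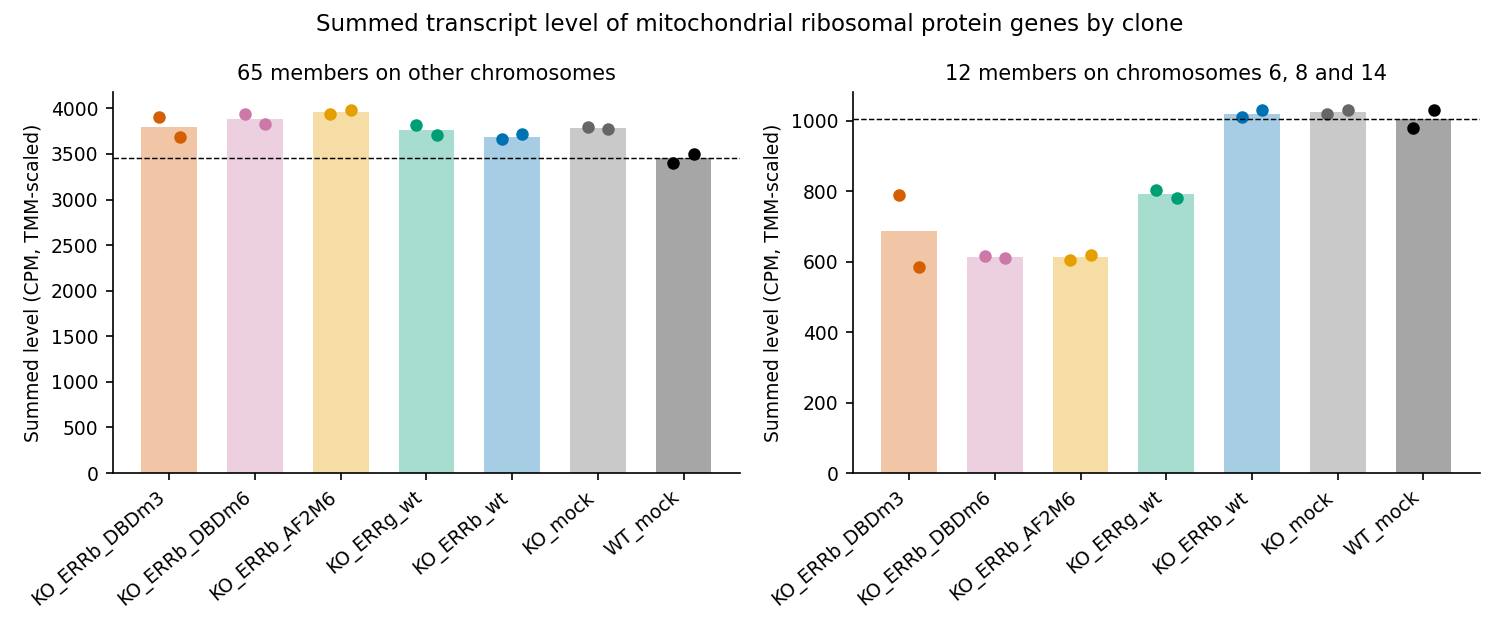
Summed level in CPM of the 65 members on other chromosomes (left) and the 12 on chromosomes 6, 8 and 14 (right), with a point for each clone, a bar for the mean of 2 clones and a dashed line at the WT_mock mean. The left sums lie at 107% to 115% of WT_mock in the knockout-derived groups, and the right sums fall to 61.1% of WT_mock in KO_ERRb_DBDm6 and KO_ERRb_AF2M6.

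Summed over the 65 members on the other chromosomes, the level was 3800 ± 156 CPM in KO_ERRb_DBDm3, 3880 ± 77.9 CPM in KO_ERRb_DBDm6, 3960 ± 23.9 CPM in KO_ERRb_AF2M6, 3760 ± 74.4 CPM in KO_ERRg_wt, 3690 ± 45.4 CPM in KO_ERRb_wt and 3790 ± 24.1 CPM in KO_mock, against 3450 ± 72.2 CPM in WT_mock (SD, n = 2 clones). Every clone of the 6 knockout-derived groups lay above both WT_mock clones (3400 and 3500 CPM). The sums of KO_ERRb_DBDm3, KO_ERRg_wt, KO_ERRb_wt and KO_mock do not differ beyond the spread of their clones, except that both KO_ERRb_wt clones (3660 and 3720 CPM) lie below both KO_mock clones (3800 and 3770 CPM). Summed over the 12 members on chromosomes 6, 8 and 14, the level was 687 ± 144 CPM in KO_ERRb_DBDm3, 613 ± 3.07 CPM in KO_ERRb_DBDm6, 612 ± 11.9 CPM in KO_ERRb_AF2M6 and 791 ± 16.5 CPM in KO_ERRg_wt, with 1020 ± 13.3 CPM in KO_ERRb_wt, 1030 ± 9.87 CPM in KO_mock and 1000 ± 34.7 CPM in WT_mock. The sum over all members was 101% of WT_mock in KO_ERRb_DBDm3 and KO_ERRb_DBDm6, 103% in KO_ERRb_AF2M6 and 102% in KO_ERRg_wt. It was 106% in KO_ERRb_wt and 108% in KO_mock.

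In the F test over the 7 groups, 44 of the 65 members on the other chromosomes differed (67.7%, against 66.9% of all tested genes there), as did 12 of the 12 on chromosomes 6, 8 and 14 (against 86.9%). The members therefore varied between the groups about as often as other genes. The 6 smallest p-values belonged to Mrpl57, Mrpl15, Mrps5, Mrps25, Mrps18b and Mrps16 (adjusted p = 2.63e-05 to 6.52e-05). Members called in none of the 11 comparisons included Mrps9, Mrps17, Mrpl10, Mrpl30, Mrpl41 and Mrpl45. The share of all tested genes called in none was not computed, so no background stands beside them.

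The receptors deficient in DNA, TFIIH or coactivator binding, and ERR gamma, were each set against the knockout without ectopic receptor and against the knockout with wild-type ERR beta, to ask what each receptor leaves unchanged or alters. These comparisons share the KO_mock or the KO_ERRb_wt clones, so their values are given side by side and not as repeats of each other. The members on the other chromosomes were called in both directions.

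KO_ERRb_DBDm3 had 8 of the 65 members higher and 4 lower than KO_mock (18.5%, against 21.8% of all tested genes there, 13.5% higher and 8.32% lower), and 8 higher and 6 lower than KO_ERRb_wt (21.5%, against 28.4%, 16.6% higher and 11.9% lower). Against KO_mock the split was 3 higher and 6 lower with TMM factors computed without chromosomes 6, 8 and 14. Against KO_mock fewer members were called without 12-1, 12-3 or 9-8, and against KO_ERRb_wt fewer without 8-3, 8-4 or 9-8. The share of all tested genes called fell as well in each of these fits. Without 9-6 both the members called and that share rose in both comparisons.

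KO_ERRb_DBDm6 had 14 higher and 10 lower than KO_mock (36.9%, against 38.4%, 22.5% higher and 15.9% lower), and 16 higher and 8 lower than KO_ERRb_wt (36.9%, against 35.5%, 20.8% higher and 14.8% lower). With the other TMM factors the splits were 10 higher and 16 lower, and 12 higher and 13 lower. Leaving out any 1 clone lowered both the members called and the share of all tested genes called, in both comparisons.

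KO_ERRb_AF2M6 had 15 higher and 6 lower than KO_mock (32.3%, against 33.6%, 19.8% higher and 13.8% lower; 11 and 7 with the other TMM factors), and 19 higher and 8 lower than KO_ERRb_wt (41.5%, against 39.7%, 22.2% higher and 17.5% lower). Fewer members were called in both comparisons whichever clone was left out, as were fewer of all tested genes. KO_ERRg_wt had 9 higher and 10 lower than KO_mock (29.2%, against 36.4%, 21.4% higher and the rest lower; 6 and 12 with the other TMM factors), and 10 higher and 7 lower than KO_ERRb_wt (26.2%, against 22.5%, 14.5% higher and 8.00% lower). In both comparisons of KO_ERRg_wt the members called and the share of all tested genes called fell whichever clone was left out. In these 8 comparisons the share of members called was close to or below that of all tested genes, so the counts are no result about the family, and the values that follow are those of single genes.

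**Figure D4:**
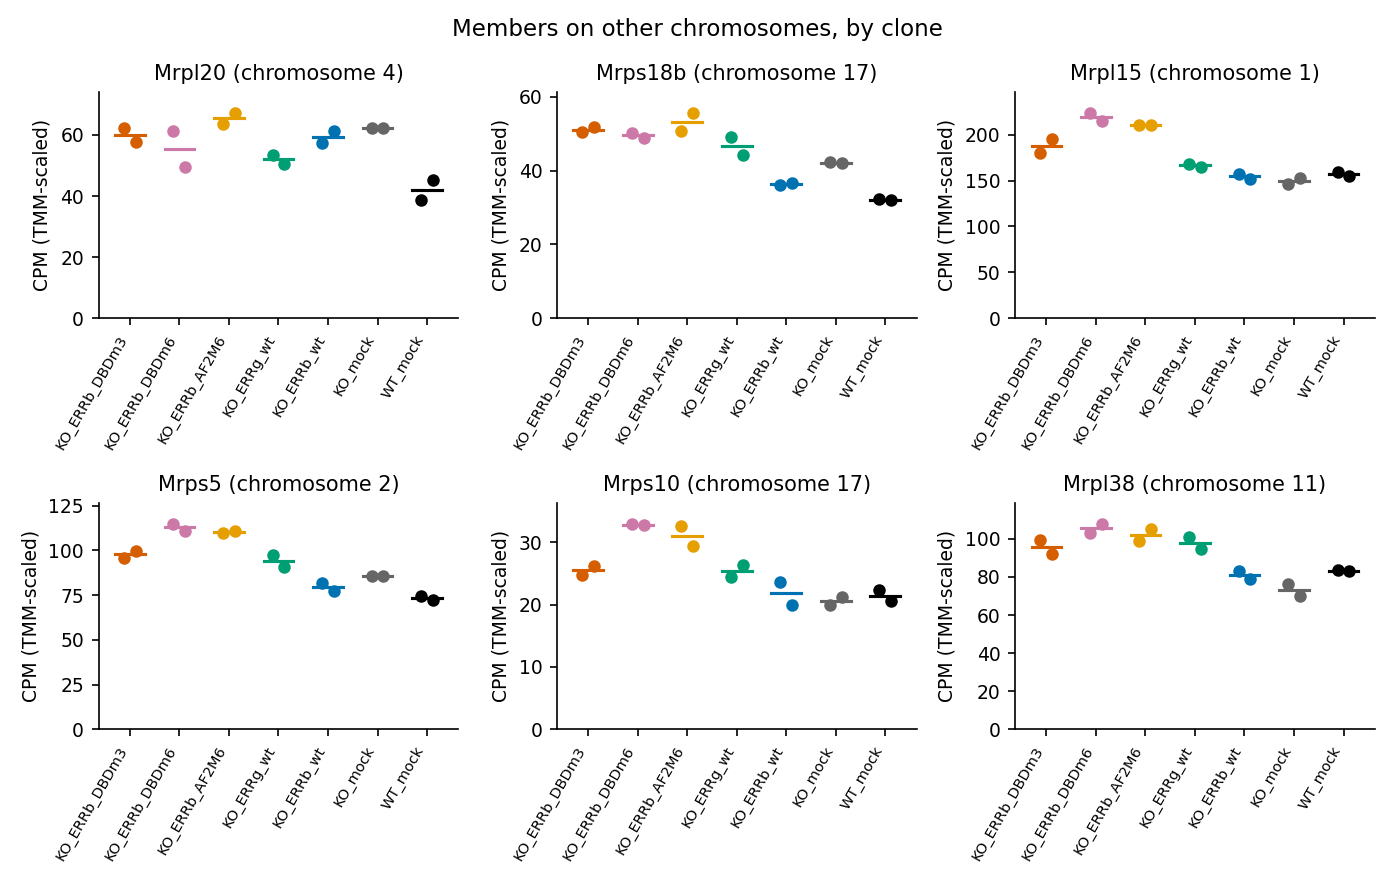
Level by clone, in CPM, of 6 members on chromosomes other than 6, 8 and 14, with a point for each clone and a line at the mean of 2 clones. Mrpl15, Mrps5 and Mrps10 are highest in KO_ERRb_DBDm6 and KO_ERRb_AF2M6, and Mrpl20 is lowest in WT_mock.

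Mrpl15, a large subunit protein of bacterial descent (chromosome 1, 4773200 to 4785726, minus strand), had 180 and 195 CPM in KO_ERRb_DBDm3, 224 and 215 CPM in KO_ERRb_DBDm6, 211 and 211 CPM in KO_ERRb_AF2M6 and 168 and 165 CPM in KO_ERRg_wt, against 157 and 152 CPM in KO_ERRb_wt, 146 and 153 CPM in KO_mock and 159 and 155 CPM in WT_mock. The clones of the 3 mutant groups stand above those of all groups with no mutant receptor, and KO_ERRb_wt overlaps with KO_mock. Against KO_mock the log2 fold change was 0.33 ± 0.0576 in KO_ERRb_DBDm3 (adjusted p = 0.00246), 0.56 ± 0.0577 in KO_ERRb_DBDm6 (adjusted p = 4.55e-05) and 0.50 ± 0.0577 in KO_ERRb_AF2M6 (adjusted p = 0.000104). All 3 calls held whichever of their clones was left out.

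Mrps5, a small subunit protein of bacterial descent (chromosome 2, 127587426 to 127603986, plus strand), had 95.9 and 99.6 CPM in KO_ERRb_DBDm3, 115 and 111 CPM in KO_ERRb_DBDm6, 110 and 111 CPM in KO_ERRb_AF2M6 and 97.3 and 90.8 CPM in KO_ERRg_wt, against 81.9 and 77.2 CPM in KO_ERRb_wt, 85.8 and 85.9 CPM in KO_mock and 74.3 and 72.2 CPM in WT_mock. Each of the 4 receptor groups named first lies above the other 3. Against KO_ERRb_wt the log2 fold change was 0.51 ± 0.059 in KO_ERRb_DBDm6, 0.47 ± 0.059 in KO_ERRb_AF2M6, 0.30 ± 0.059 in KO_ERRb_DBDm3 and 0.24 ± 0.0594 in KO_ERRg_wt (adjusted p = 9.66e-05 to 0.0129). The call in KO_ERRg_wt was lost without 8-4 (adjusted p = 0.106) or 14-1-10 (adjusted p = 0.134).

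Mrps18b had 50.4 and 51.8 CPM in KO_ERRb_DBDm3, 50.1 and 48.9 CPM in KO_ERRb_DBDm6, 50.7 and 55.7 CPM in KO_ERRb_AF2M6 and 49 and 44.2 CPM in KO_ERRg_wt, all above the 36.1 and 36.7 CPM of KO_ERRb_wt. The log2 fold changes over KO_ERRb_wt were 0.49 ± 0.0715, 0.44 ± 0.0715, 0.55 ± 0.0715 and 0.36 ± 0.0722 in the same order (adjusted p = 0.000161 to 0.00483). The last call was lost without 14-1-10 (adjusted p = 0.0631). Mrps18a, the large subunit relative of Mrps18b, had 42.6 and 44 CPM in KO_ERRb_DBDm3 against 36.2 and 34.6 CPM in KO_ERRb_wt (0.29 ± 0.063, adjusted p = 0.00536). A like level was read in KO_ERRb_DBDm6 (42.6 and 41.9 CPM), KO_ERRb_AF2M6 (43.3 and 43.7 CPM) and KO_mock (42.4 and 42.2 CPM). KO_ERRg_wt had 37.4 and 35.4 CPM.

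Mrps10, a protein of the small subunit head, had 24.8 and 26.2 CPM in KO_ERRb_DBDm3, 33 and 32.7 CPM in KO_ERRb_DBDm6, 32.6 and 29.4 CPM in KO_ERRb_AF2M6 and 24.5 and 26.4 CPM in KO_ERRg_wt, against 23.7 and 19.9 CPM in KO_ERRb_wt and 19.9 and 21.2 CPM in KO_mock. Against KO_mock its fold change of 0.67 ± 0.0992 in KO_ERRb_DBDm6 (adjusted p = 0.000375) was the highest of any member there. In KO_ERRb_DBDm3 it was 0.31 ± 0.0993 (adjusted p = 0.0404), a call lost without 12-1, 12-3 or 9-8 and with TMM factors computed without chromosomes 6, 8 and 14 (adjusted p = 0.0662).

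Mrpl38, a mitochondrial addition to the central protuberance of the large subunit, had 99.2 and 91.9 CPM in KO_ERRb_DBDm3, 103 and 108 CPM in KO_ERRb_DBDm6, 99.1 and 105 CPM in KO_ERRb_AF2M6 and 101 and 94.8 CPM in KO_ERRg_wt, against 76.5 and 69.8 CPM in KO_mock. The clones of these 4 groups all lie above KO_mock, and those of KO_ERRb_DBDm6 also above KO_ERRb_DBDm3 and KO_ERRg_wt, with log2 fold changes of 0.39 ± 0.0704, 0.52 ± 0.0704, 0.48 ± 0.0704 and 0.42 ± 0.0708 (adjusted p = 0.000216 to 0.00287). WT_mock, with 83.5 and 83.1 CPM, and KO_ERRb_wt, with 83.1 and 78.7 CPM, lie between. Mrpl2, a protein near the peptidyl transferase centre, had 106 and 104 CPM in KO_ERRb_DBDm6 against 80.7 and 75.8 CPM in KO_mock (0.42 ± 0.0608, adjusted p = 0.000328). It was called higher than in KO_mock in all 4 groups. The other 3 had 91.9 and 88.8 CPM (KO_ERRb_DBDm3), 96.3 and 91.6 CPM (KO_ERRb_AF2M6) and 94.5 and 95.2 CPM (KO_ERRg_wt).

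Mrps14, another protein of the small subunit head, had 49.1 and 75.9 CPM in KO_ERRb_AF2M6 against 38 and 43.2 CPM in KO_mock (0.62 ± 0.153, adjusted p = 0.00866). The value rests on clone 32-31: without it the log2 fold change was 0.28 (adjusted p = 0.0528), and without 12-1 it was 0.53 (adjusted p = 0.075). Mrpl32 had 41.3 and 40.6 CPM in KO_ERRb_AF2M6 and 39.6 and 36.6 CPM in KO_ERRg_wt, against 30.4 and 30.5 CPM in KO_mock. Its log2 fold change was 0.43 ± 0.076 (adjusted p = 0.00132) in KO_ERRb_AF2M6 and 0.32 ± 0.0769 (adjusted p = 0.00704) in KO_ERRg_wt, where the call was lost without 14-1-10 (adjusted p = 0.0737). Smaller increases in KO_ERRb_DBDm3 were those of Mrpl17 over KO_mock (0.22 ± 0.0668, adjusted p = 0.0306) and of Mrpl54 over KO_ERRb_wt (0.26 ± 0.084, adjusted p = 0.0332). The call of Mrpl17 was lost without 12-1, 12-3 or 9-8 and with TMM factors computed without chromosomes 6, 8 and 14, and that of Mrpl54 without 8-3, 8-4 or 9-8.

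Among the members that fell on the other chromosomes, Mrps6 had 12.8 and 10.5 CPM in KO_ERRb_DBDm3, 10.1 and 9.78 CPM in KO_ERRb_DBDm6 and 10.3 and 12.5 CPM in KO_ERRb_AF2M6, against 17.6 and 17.7 CPM in KO_ERRb_wt and 15.6 and 15.4 CPM in KO_mock. In all 3 mutants its clones lie below those of KO_ERRb_wt and KO_mock, with log2 fold changes over KO_ERRb_wt of −0.59 ± 0.121, −0.83 ± 0.122 and −0.63 ± 0.121 (adjusted p = 0.000364 to 0.00395), for a gene that shares exons with Slc5a3. Mrpl9 had 72.6 and 65.4 CPM in KO_ERRb_DBDm3, 61.2 and 64.4 CPM in KO_ERRb_DBDm6, 63.2 and 66.2 CPM in KO_ERRb_AF2M6 and 64 and 61 CPM in KO_ERRg_wt. In all 4 it was called lower than in KO_mock, which had 85.9 and 87 CPM. WT_mock had 65.8 and 70.9 CPM and KO_ERRb_wt 75.2 and 78.3 CPM, so KO_mock was the highest group. Mrpl33 had 33.5 and 31.2 CPM in KO_ERRb_DBDm6 against 41.6 and 45.6 CPM in KO_mock, a call lost without 12-3 or 10-26. Mrps21, whose promoter holds the ERR core on both strands, had 26.4 and 21.5 CPM in KO_ERRb_DBDm3, 23 and 21.5 CPM in KO_ERRb_DBDm6 and 23.5 and 21.5 CPM in KO_ERRb_AF2M6 and 27.2 and 25.9 CPM in KO_ERRg_wt, against 32.9 and 29.3 CPM in KO_ERRb_wt, 30.5 and 28.5 CPM in KO_mock and 27.7 and 26.5 CPM in WT_mock. All 6 mutant clones lie below those of KO_ERRb_wt and KO_mock, and their log2 fold changes over KO_ERRb_wt were −0.38 ± 0.105, −0.48 ± 0.105 and −0.47 ± 0.105 (adjusted p = 0.00411 to 0.0188). The first of these calls was lost without 8-3 or 9-8.

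With ERR gamma, Mrpl24 and Mrps2 rose and Mrpl44 and Mrpl3 fell. Mrpl24, which lies at the peptide exit, had 118 and 111 CPM in KO_ERRg_wt against 94.7 and 89.3 CPM in KO_ERRb_wt and 89.2 and 91.1 CPM in KO_mock. Its log2 fold change was 0.35 ± 0.0623 over KO_mock (adjusted p = 0.00147) and 0.31 ± 0.0622 over KO_ERRb_wt (adjusted p = 0.00428), the second being lost without 14-1-10 (adjusted p = 0.055). In KO_ERRb_DBDm6 it had 109 and 104 CPM and was also higher than in KO_mock (0.24 ± 0.062, adjusted p = 0.00941), a call lost without 12-1 or 10-24. Mrps2 had 111 and 102 CPM in KO_ERRg_wt against 85.1 and 87.9 CPM in KO_ERRb_wt (0.30 ± 0.066, adjusted p = 0.00727), a call lost without 14-1-10, as were all others of members higher than in KO_ERRb_wt on the other chromosomes. Its clones overlap with those of KO_ERRb_DBDm3 (98.7 and 103 CPM) and KO_ERRb_AF2M6 (98.1 and 107 CPM). Mrpl44 fell, with 37.4 and 35.2 CPM in KO_ERRg_wt against 46.5 and 47.5 CPM in KO_mock, and its level overlaps with the 36.1 and 37.9 CPM of WT_mock. Mrpl3 also fell, with 43.6 and 44.4 CPM in KO_ERRg_wt against 56.9 and 59.1 CPM in KO_mock.

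On chromosomes 6 and 8 all 9 members fell in KO_ERRb_DBDm3, KO_ERRb_DBDm6 and KO_ERRb_AF2M6 against KO_mock, on a background of 45.5%, 50.8% and 53.2% of the tested genes of chromosomes 6, 8 and 14 called lower. In KO_ERRg_wt 6 of the 9 were lower (40.1%). Against KO_ERRb_wt, 8 of the 9 were lower in KO_ERRb_DBDm3 (49.0% of genes lower), 9 in KO_ERRb_DBDm6 (53.4%), 9 in KO_ERRb_AF2M6 (56.7%) and 6 in KO_ERRg_wt (37.1%). These shares include chromosome 14, whose other genes had medians of 0.00 to 0.06 in log2, so they are not matched to the 9 members. The other genes of chromosomes 6 and 8 were also lower in the median. On chromosome 6, 729 other genes had a median log2 fold change over KO_mock of −0.96 in KO_ERRb_AF2M6, −0.93 in KO_ERRb_DBDm6, −0.63 in KO_ERRb_DBDm3 and −0.38 in KO_ERRg_wt. The medians of the 7 members there were −0.92, −0.84, −0.68 and −0.50 in the same order. On chromosome 8, 793 other genes had medians of −0.55, −0.49, −0.53 and −0.53 in that order, beside −0.42, −0.50, −0.49 and −0.58 for Mrpl34 and Mrps31. On chromosomes 6 and 8, changes of single genes and of the whole chromosome cannot be told apart.

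**Figure D5:**
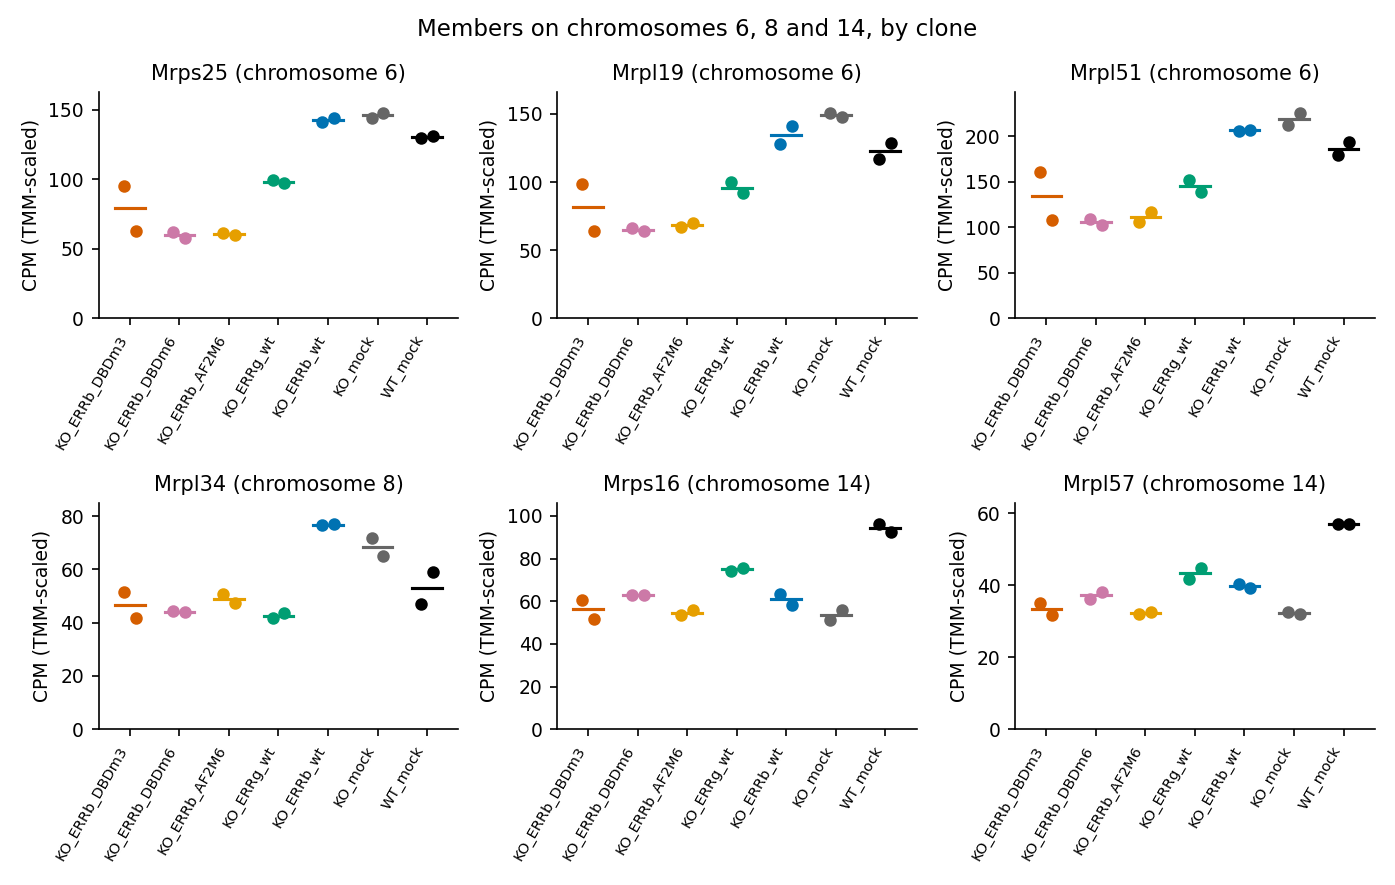
Level by clone, in CPM, of 6 members on chromosomes 6, 8 and 14, with a point for each clone and a line at the mean of 2 clones. Mrps25, Mrpl19 and Mrpl51 are low in the 3 mutant groups and intermediate in KO_ERRg_wt, with KO_ERRb_DBDm3 clone 9-6 above 9-8, while Mrps16 and Mrpl57 are highest in WT_mock.

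Mrps25, a small subunit protein found only in mitochondria (chromosome 6, 92169523 to 92184023, minus strand), had 95.3 and 62.8 CPM in KO_ERRb_DBDm3, 62 and 57.8 CPM in KO_ERRb_DBDm6, 61.2 and 59.8 CPM in KO_ERRb_AF2M6 and 99.4 and 97.2 CPM in KO_ERRg_wt, against 141 and 144 CPM in KO_ERRb_wt, 144 and 148 CPM in KO_mock and 130 and 131 CPM in WT_mock. No clone of the first 4 groups reaches the other 3. The log2 fold change over KO_mock was −1.28 ± 0.141 in KO_ERRb_DBDm6 (adjusted p = 7.1e-05), the lowest of any member in any comparison. In KO_ERRb_DBDm3, clone 9-6 (95.3 CPM) is closer to KO_ERRg_wt and 9-8 (62.8 CPM) to the other mutants, and the same holds for the chromosome 6 members as a set, whose median over the WT_mock mean was −0.32 in 9-6 and −0.89 in 9-8. The fold change of Mrps25 in KO_ERRb_DBDm3 over KO_mock was −0.88 ± 0.139 (adjusted p = 0.00142) and stayed called without 9-6 and without 9-8.

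Mrpl19 (chromosome 6) had 98.8 and 64 CPM in KO_ERRb_DBDm3, 66.1 and 63.8 CPM in KO_ERRb_DBDm6, 67 and 70.3 CPM in KO_ERRb_AF2M6 and 99.7 and 91.9 CPM in KO_ERRg_wt, against 151 and 148 CPM in KO_mock. Mrpl51 had 109 and 103 CPM in KO_ERRb_DBDm6 and 106 and 117 CPM in KO_ERRb_AF2M6 against 212 and 226 CPM in KO_mock. In KO_ERRb_DBDm6 the log2 fold changes over KO_mock were −1.20 ± 0.152 for Mrpl19 (adjusted p = 0.00016) and −1.04 ± 0.142 for Mrpl51 (adjusted p = 0.000254). The other members of chromosome 6 with called changes there, Mrps35, Mrpl53, Mrps33 and Mrpl35, had −0.84 ± 0.115, −0.81 ± 0.126, −0.80 ± 0.164 and −0.71 ± 0.153. In KO_ERRb_DBDm3 against KO_mock the call of Mrps33 was lost without 12-3 or 9-8. In KO_ERRg_wt against KO_mock the calls of Mrpl19 (−0.64 ± 0.151, adjusted p = 0.00685), Mrpl51 (−0.58 ± 0.141, adjusted p = 0.00785) and Mrps25 (−0.57 ± 0.139, adjusted p = 0.00837) were lost without 14-11 (adjusted p = 0.0547, 0.0623 and 0.0528). Against KO_ERRb_wt the calls of these 3 genes in KO_ERRg_wt were lost whichever of the 4 clones was left out (adjusted p = 0.0543 to 0.177).

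Mrpl34 (chromosome 8, 71464926 to 71465753, plus strand) had 51.5 and 41.9 CPM in KO_ERRb_DBDm3, 44.3 and 44 CPM in KO_ERRb_DBDm6, 50.7 and 47.4 CPM in KO_ERRb_AF2M6 and 41.7 and 43.5 CPM in KO_ERRg_wt, against 76.5 and 77.2 CPM in KO_ERRb_wt, 71.8 and 65 CPM in KO_mock and 46.9 and 58.9 CPM in WT_mock. The mutant and ERR gamma clones all lie below KO_ERRb_wt and KO_mock. Those of KO_ERRb_DBDm3 and KO_ERRb_AF2M6 overlap with WT_mock, and those of KO_ERRb_DBDm6 and KO_ERRg_wt lie below it. In KO_ERRg_wt the log2 fold change over KO_ERRb_wt was −0.85 ± 0.116 (adjusted p = 0.000478), beside −0.55 for the other genes of the chromosome.

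On chromosome 14, Mrps16 and Mrpl57 rose in KO_ERRg_wt against KO_mock (10.7% of tested genes of chromosomes 6, 8 and 14 were higher) and, by less, in KO_ERRb_DBDm6 against KO_mock (0.23 ± 0.0828, adjusted p = 0.0457, and 0.20 ± 0.0721, adjusted p = 0.0437; 9.78% of genes higher). The shares of higher genes given here include chromosomes 6 and 8, whose other genes were lower in the median, so they are not matched to chromosome 14. Both calls in KO_ERRb_DBDm6 were lost whichever of the 4 clones compared was left out and with TMM factors computed without chromosomes 6, 8 and 14 (adjusted p = 0.112 and 0.118). Mrps16 had 74.4 and 75.4 CPM in KO_ERRg_wt against 63.6 and 58.3 CPM in KO_ERRb_wt and 51.4 and 55.9 CPM in KO_mock. Mrpl57 had 41.6 and 44.9 CPM in KO_ERRg_wt against 40.2 and 39.3 CPM in KO_ERRb_wt and 32.6 and 32.1 CPM in KO_mock. Over KO_mock the log2 fold changes in KO_ERRg_wt were 0.48 ± 0.0834 for Mrps16 (adjusted p = 0.00115) and 0.42 ± 0.0728 for Mrpl57 (adjusted p = 0.00114), beside 0.05 for the other genes of chromosome 14. Mrps16 was also called in KO_ERRg_wt over KO_ERRb_wt (0.30 ± 0.0831, adjusted p = 0.0236; 6.79% of genes higher), a call lost without 8-4, 14-1-10 or 14-11. Neither reached the 96.4 and 92.4 CPM of Mrps16 or the 57.1 and 57 CPM of Mrpl57 in WT_mock. Mrpl57 was lower than KO_ERRb_wt in KO_ERRb_DBDm3 (−0.25 ± 0.072, adjusted p = 0.0207) and in KO_ERRb_AF2M6 (−0.30 ± 0.072, adjusted p = 0.00626), where the other genes of chromosome 14 had medians of 0.04 and 0.03. The call in KO_ERRb_DBDm3 was lost without 8-3 or 9-8.

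Other genes of mitochondrial translation were followed in 5 lists, counted over all chromosomes. Their falls in KO_mock thus include genes of chromosome 14, which was lower as a whole there, and were not counted apart. In KO_mock against WT_mock, where 2747 of all 15238 tested genes were higher and 2956 lower (37.4% called), 6 of 14 tested regulators and enzymes of mitochondrial transcription rose and none fell, with a median log2 fold change of 0.18. Among them were Tfam (0.42 ± 0.0889, adjusted p = 0.00451), which packages mitochondrial DNA, Polrmt (0.25 ± 0.078, adjusted p = 0.0291), the mitochondrial RNA polymerase, Pprc1 (0.31 ± 0.0651, adjusted p = 0.00434), a coactivator of the PGC-1 family, and Myc (1.33 ± 0.358, adjusted p = 0.0143). Of 26 assembly factors 6 rose and 5 fell (median 0.08), with the 16S rRNA methyltransferase Rnmtl1 higher (0.49 ± 0.0937, adjusted p = 0.00268) and the 12S rRNA methyltransferase Mettl15 lower (−0.68 ± 0.142, adjusted p = 0.004). Of 15 translation factors 2 rose and 5 fell (median 0.04), with the elongation factor Tufm higher (0.31 ± 0.0773, adjusted p = 0.00974) and the inner membrane insertase Oxa1l, on chromosome 14, lower (−0.71 ± 0.0714, adjusted p = 0.00013). Of 17 synthetases 4 rose and 2 fell (median 0.02).

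Of 6 mitochondrial ribosomal proteins under other names, Gadd45gip1 (0.49 ± 0.0898, adjusted p = 0.00224) and Ict1 (0.25 ± 0.0838, adjusted p = 0.0359) rose in KO_mock. Dap3 (−0.33 ± 0.0867, adjusted p = 0.0132) and Chchd1, on chromosome 14 (−0.54 ± 0.0653, adjusted p = 0.000306), fell. Without WT_mock 5-2 the calls of Tfam, Polrmt, Myc, Mettl15, Tufm, Ict1 and Dap3 were lost, and without KO_mock 12-1 those of Polrmt, Pprc1, Myc, Tufm, Ict1 and Dap3. Without 12-3 the calls of Myc, Ict1 and Dap3 were lost, and without 5-5 that of Polrmt. In KO_ERRb_wt against KO_mock no gene of the 5 lists was called.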

How the data were processed

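Ribosomal RNA-depleted, strand-specific libraries were sequenced as single-end reads of 100 bp, per the labels' protocols. Per the submitters' processing notes, STAR (version 2.7.8a) aligned the reads to mm10. The authors deposited one table of integer counts per gene symbol from featureCounts, whose version is 2.0.1 per the file headers and 2.0.10 in the processing notes. Its command line, per the file headers, asks for exons, the reverse strand, and reads in overlapping genes counted for each of them. Library totals ran from 21276790 to 30021667 counts. All count columns were used.

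The libraries of each clone were summed. Genes were filtered with filterByExpr, which left 15238 genes, scaled with TMM factors (0.972 to 1.05) and fitted for all 14 clones in 1 robust quasi-likelihood model in edgeR (version 4.0.16, R version 4.3.3; 7 residual degrees of freedom). Benjamini-Hochberg adjustment ran over all tested genes, with 0.05 as the limit below which a gene is called. Standard errors were derived from F (fold change in log2 divided by its root). RPKM used the exonic length in the table. DESeq2 (version 1.42.0) and limma voom (version 3.58.1) served as alternatives. Only the edgeR fit was tested on simulated counts, for KO_mock against WT_mock.

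The members, lists, motifs and comparisons were chosen with earlier results of these data known. Among called members whose clones did not overlap between groups, the 5 highest and 5 lowest per comparison were to be named, with the 6 smallest p of the F test, the 4 highest and lowest levels and members sharing exons, and other members named were chosen after their values were seen. Promoter sequences come from RefSeq (GRCm38.p6), and 58 of 68 matched members had a RefSeq start within 50 bases of the start in the table. The labels differ on whether LIF was in the medium.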

Additional observations from a re-analysis of the deposited data

How the results depend on the processing

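Of 96 results for single named members in a comparison, 69 were called under every alternative run, and 69 whichever clone of their groups was left out. All 96 were called with the DESeq2 Wald test and with DESeq2 size factors, 93 with TMM factors computed without chromosomes 6, 8 and 14, and 93 with no filter on low counts. None turned direction. The TMM alternative moved the median of all genes by at most −0.05 in log2.

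The number of members called on the other chromosomes between KO_ERRb_wt and KO_mock was 2 with DESeq2 (3.08%, against 7.11% of genes there). It was 1 both with the replicate number as a block and with libraries in place of clone sums (1.54%, against 3.84% and 3.78%). Between KO_ERRb_wt and WT_mock it was 10 with DESeq2 (15.4%, against 14.8%) and 9 with the replicate block (13.8%, against 13.3%). With libraries it was 8 (12.3%, against 13.5%). These shares stand near or below those of all tested genes. Leaving out each clone in turn gave 5 to 23 members for KO_mock and 0 to 2 for KO_ERRb_wt against WT_mock. It gave 3 to 16 for KO_ERRb_DBDm3, 12 to 16 for KO_ERRb_DBDm6, 11 to 18 for KO_ERRb_AF2M6 and 11 to 13 for KO_ERRg_wt against KO_mock. Against KO_ERRb_wt it gave 9 to 18, 12 to 16, 15 to 19 and 3 to 13 in the same groups. Leaving out KO_ERRb_DBDm3 clone 9-6 raised the share of all tested genes called against KO_mock and against KO_ERRb_wt. Leaving out any other clone lowered that share in the comparisons of its group.

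Deviations of libraries of different clones with the same replicate number had a median correlation of 0.00295 (66 clone pairs, −0.121 to 0.355). The clone pairs within a group were not set apart, so pairing within a group was not tested. The block was fitted with limma voom on the 24 libraries that carry a number, which leaves out KO_ERRg_wt. It called all 76 of the named results it could compute, while the calls of Mrpl57 in KO_ERRb_DBDm6 against KO_mock (adjusted p = 0.191) and in KO_ERRb_DBDm3 against KO_ERRb_wt (adjusted p = 0.114) were lost with it. With libraries in place of clone sums these 2 calls were lost too, as was that of Mrpl57 in KO_ERRb_AF2M6 against KO_ERRb_wt (adjusted p = 0.0503). The lowest count of a member in a library was 94, that of Mrpl23, and counting error was not set against the spread of clones.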
